A study of Mus musculus with 9 samples.

Results

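The genes described here are 8 factors of the post-implantation epiblast, namely *Fgf5*, *Otx2*, *Pou3f1*, *Zic2*, *Zic5*, *Foxd3*, *Sall2* and *Sall3*. They were listed by name, with earlier results of these data known, and all 8 were found among the 54232 genes of the count file. Poly(A) RNA was sequenced from naïve mESCs and from the primed mEpiSCs into which they were converted. Each state was sampled at passage 5 (P5) and passage 15 (P15) in 2 libraries. MEFs, mouse embryonic fibroblasts of the kind used as feeders, were sampled in 1 library. The cells came from the OG2 ESC line of C57 x CBA background, which carries a GFP reporter driven by the distal *Oct4* promoter in both states. Naïve cells were kept in serum and LIF and primed cells in medium with bFGF and Activin A, both on mitomycin C-treated MEFs. State and culture medium therefore cannot be told apart. The labels also do not separate passage from the time of culture, harvest or library preparation. The study calls its expression values of these cells biological repeats, whereas the sample labels do not say whether the libraries of a group came from separate cultures. P-values measure the spread between these samples of a single line. The 8 libraries of naïve and primed cells held between 14378051 and 20985136 counts, and that of MEFs held 25646547.

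The epiblast is the tissue of the embryo from which the body is formed. After implantation it turns from a naïve into a primed pluripotent tissue, in which genes of the pre-implantation state are shut off and genes that prepare cells for germ layer formation are switched on. Mouse EpiSCs are derived from or resemble this later tissue and depend on FGF and Activin signalling. Of the 8 genes, *Fgf5* encodes a secreted FGF ligand and is the classical marker of the post-implantation epiblast. The other 7 encode transcription factors, a homeodomain protein (*Otx2*), a POU domain protein also called Oct6 (*Pou3f1*), zinc finger proteins of the Zic family (*Zic2*, *Zic5*), a forkhead protein (*Foxd3*) and zinc finger proteins of the Spalt-like family (*Sall2*, *Sall3*).

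The libraries showed the markers of their labels. Of 10 naïve state markers, all 10 were lower in primed cells at both passages, such as *Esrrb*, *Zfp42*, *Klf2* and *Tfcp2l1*. Core pluripotency genes *Pou5f1*, *Sox2* and *Nanog* were expressed in every naïve and primed library and were lower in primed cells at both passages. All 30 fibroblast markers were detected above 3 counts in every library. Their median level was 17.2% and 17.6% of that in MEFs in naïve P5 cells, 15.1% and 14.9% in primed P5 cells, 19.6% and 20.1% in naïve P15 cells, and 25.5% in both primed P15 libraries. Their summed level was between 10450 and 10460 CPM in naïve P5 cells, 6678 and 6816 CPM in primed P5 cells, 17100 and 17830 CPM in naïve P15 cells, and 16220 and 16840 CPM in primed P15 cells, against 84510 CPM in MEFs. Single markers ranged from 0.671% to 354% of their MEF level, so that the median is a rough measure of feeder RNA. It also assumes that the sequenced MEFs resembled the treated feeders, which the title of the MEF sample does not say. CPM here means counts scaled by the TMM-adjusted library sizes of all 9 libraries.

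Positions of the genes are those of GRCm38 in GENCODE M21. *Fgf5* (ENSMUSG00000029337) lies at chr5:98254184-98277030 on the plus strand. *Foxd3* (ENSMUSG00000067261) lies at chr4:99656299-99658622 and *Pou3f1* (ENSMUSG00000090125) at chr4:124656807-124660655, both on the plus strand. Chromosome 14 holds 4 of the genes, *Otx2* (ENSMUSG00000021848) at chr14:48657677-48673819 and *Sall2* (ENSMUSG00000049532) at chr14:52311172-52328762 on the minus strand, *Zic5* (ENSMUSG00000041703) at chr14:122456795-122465677 on the minus strand and *Zic2* (ENSMUSG00000061524) at chr14:122475435-122479852 on the plus strand. *Zic2* and *Zic5* start 9758 bases apart and are transcribed away from each other.

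RefSeq sequence of the 250 bases before a start site (GRCm38.p6) was matched by symbol for 5 of the 8 genes, in 9 windows. Of the windows that overlap no exon, 3 are printed, chosen by the expression of their genes. They belong to *Fgf5*, the gene that differed most between the states, and to *Foxd3* and *Otx2*. With passage *Foxd3* rose and *Otx2* fell in both states. All 3 windows are written 5′ to 3′ on the gene's strand, with capitals marking a match to a searched motif.
Fgf5: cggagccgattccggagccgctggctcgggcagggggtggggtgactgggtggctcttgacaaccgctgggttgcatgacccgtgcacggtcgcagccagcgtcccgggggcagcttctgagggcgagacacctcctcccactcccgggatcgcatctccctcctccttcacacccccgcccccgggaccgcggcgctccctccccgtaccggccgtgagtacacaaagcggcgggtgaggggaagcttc
Foxd3: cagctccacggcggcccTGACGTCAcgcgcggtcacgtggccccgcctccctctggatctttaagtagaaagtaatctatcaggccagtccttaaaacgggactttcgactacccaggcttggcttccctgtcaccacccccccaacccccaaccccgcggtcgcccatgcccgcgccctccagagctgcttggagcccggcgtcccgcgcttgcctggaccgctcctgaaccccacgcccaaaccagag
Otx2: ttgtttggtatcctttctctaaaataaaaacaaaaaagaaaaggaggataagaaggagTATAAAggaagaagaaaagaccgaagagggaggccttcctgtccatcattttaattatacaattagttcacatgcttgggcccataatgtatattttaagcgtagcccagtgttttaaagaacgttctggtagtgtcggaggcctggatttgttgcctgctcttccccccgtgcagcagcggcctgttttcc
The *Fgf5* window (chr5:98253934-98254183, plus strand) ends at the base before the annotated start and had a GC content of 70.8% with 24 CpG dinucleotides, against medians of 52.4% and 6 over 32851 windows of the same length. The *Foxd3* window (chr4:99656049-99656298, plus strand) likewise ends at the base before the start, with 65.6% GC and 21 CpG. The *Otx2* window (chr14:48667645-48667894, minus strand) belongs to a start site inside the gene, within its longer isoforms, and had 42% GC and 6 CpG. The other *Otx2* windows, which overlap exons, had 48.4% to 53.6% GC. A *Sall2* window without exon overlap, not printed, had 64.4% GC and 6 CpG. Searched on both strands were the OTX homeobox motif TAATCC, the octamer ATGCAAAT, the ZIC motif CAGCAGG, the forkhead motif TGTTTAC, the cAMP response element TGACGTCA and the TATA box TATAAA. No 2 matches overlapped in the 3 printed windows. *Foxd3* held TGACGTCA 233 bases before the start, letters present in 1.55% of all windows, and *Otx2* held TATAAA 192 bases before this start, letters present in 12.4%. In the *Fgf5* window there was no match. The other motifs were present in 6.25% (TAATCC), 1.6% (ATGCAAAT), 8.44% (CAGCAGG) and 3.17% (TGTTTAC) of all windows. A match describes letters only.

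Most of these genes were higher in primed than in naïve cells at both passages. All 8 passed the filter on low counts in every comparison. Of the 8 genes, 6 were called higher and 1 lower in primed cells at P5 at an adjusted p under 0.01 (edgeR's quasi-likelihood test), and *Foxd3* did not pass. Of all 16482 genes tested, 62.3% were called, 31.2% higher and 31.1% lower. At P15, 6 were higher and 1 lower, and *Zic5* did not pass, where 56.6% of 15733 genes were called, 28.2% higher and 28.4% lower. With a change of at least 2-fold besides, 5 were higher and 1 lower at each passage, against 13.5% and 8.85% of all genes at P5 and 12.2% and 11% at P15. The median log2 fold change of the 8 genes was 1.21 at P5 and 1.72 at P15, and that of all genes was 0.00776 and -0.00387. *Sall3* was the gene that fell.

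**Figure D1:**
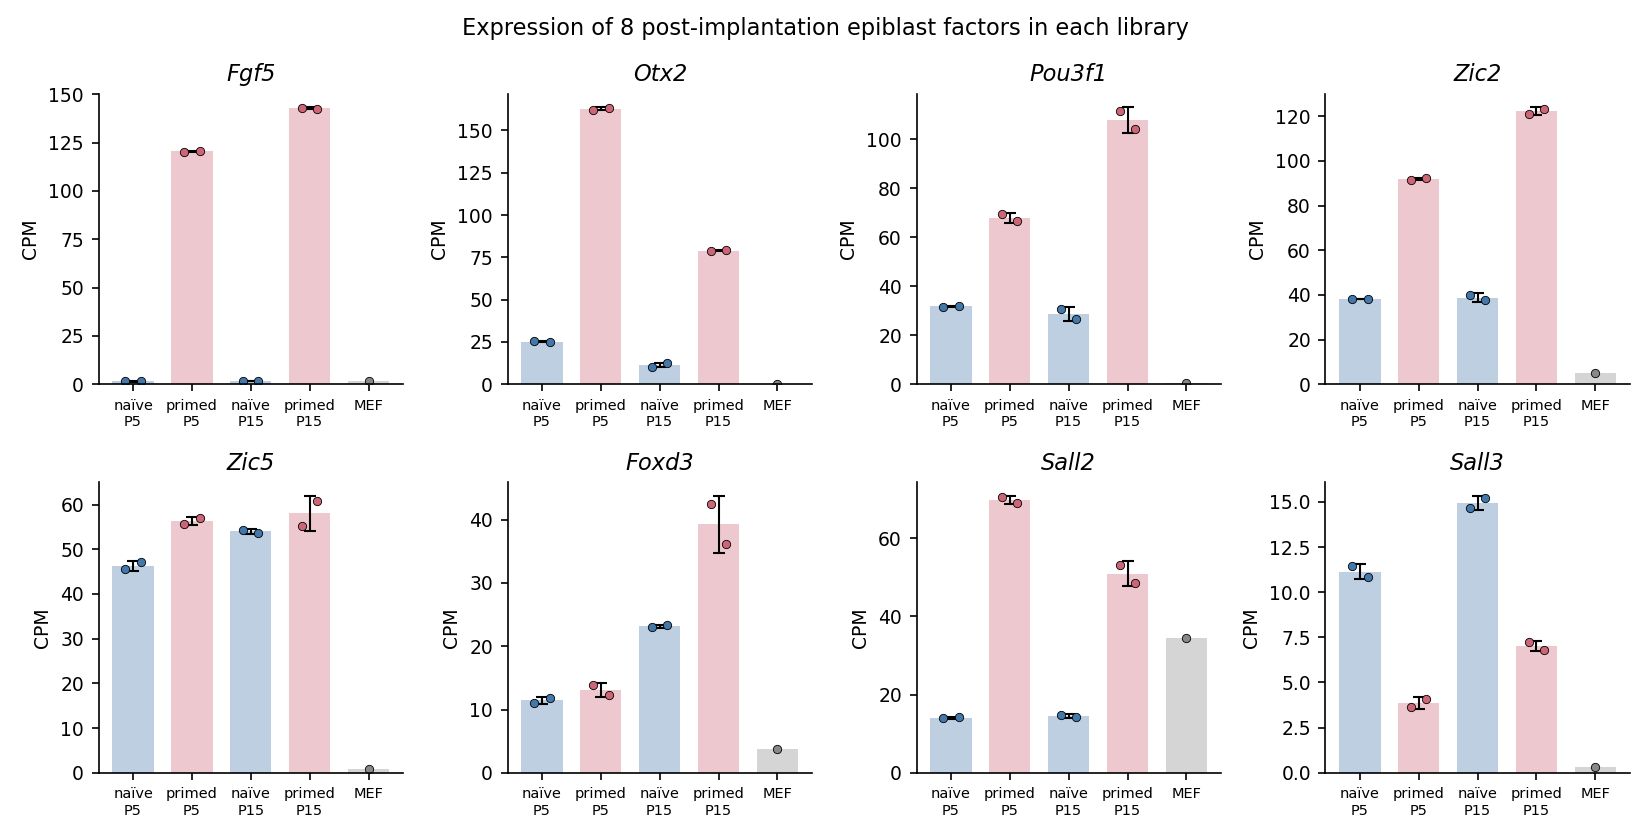
Expression of the 8 genes in CPM (y axis, starting at 0 and scaled per gene) by state and passage and in MEFs; points are libraries, bars the mean of 2 libraries with the SD, and the MEF bar is 1 library. *Fgf5* was below 2 CPM in naïve cells and above 120 CPM in primed cells, *Sall3* was the only gene with lower primed than naïve bars at both passages, and *Sall2* had a MEF level above all of its naïve libraries.

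*Fgf5*, the ligand, showed the widest difference between the states of the 8 genes. Its level was 1.44 and 1.63 CPM in naïve P5 cells, 120.4 and 121 CPM in primed P5 cells, 1.77 and 1.66 CPM in naïve P15 cells, and 143 CPM in both primed P15 libraries. Every primed library stood far above every naïve one. The log2 fold change was 6.32 ± 0.095 (SE, adjusted p = 7.02e-30) at P5 and 6.37 ± 0.12 (adjusted p = 7.13e-33) at P15 by edgeR, levels 79.8-fold and 82.5-fold higher. The naïve counts behind these folds were small, between 24 and 33 per library. The SEs of these folds are too small for such counts. In the fit of 8 libraries the difference between the passages had an SE of 0.26, larger than both together. MEFs held 1.57 CPM of *Fgf5*, with an exact 95% Poisson interval of 1.11 to 2.17 CPM that covers counting error only. At the median share of feeder RNA this would give 16.9% to 19.0% of the naïve levels and less than 0.3% of the primed levels. The lowest ratio of a fibroblast marker to its MEF level would give only 0.0649 to 0.104 CPM in naïve libraries. The effect at P15 minus that at P5 was 0.065 on the log2 scale, with a 95% interval of -0.43 to 0.57 (adjusted p = 0.887 by edgeR).

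*Otx2*, which encodes a homeodomain factor of the epiblast and later of the anterior brain, was higher in primed cells and lower at the late passage. Naïve P5 cells had 25.3 and 24.8 CPM, primed P5 cells 162 and 163 CPM, naïve P15 cells 10.4 and 12.4 CPM, and primed P15 cells 78.6 and 79.2 CPM. No library of one group overlapped with another group. Primed cells exceeded naïve cells by 2.73 ± 0.052 (SE) on the log2 scale at P5 (adjusted p = 3.02e-27 by edgeR) and by 2.77 ± 0.097 at P15 (adjusted p = 2.37e-24 by edgeR), 6.64-fold and 6.84-fold. The difference between these effects was 0.057, with a 95% interval of -0.16 to 0.28 (adjusted p = 0.739 by edgeR). From P5 to P15 the level fell by 1.14 on the log2 scale in naïve cells (adjusted p = 5.68e-11 by edgeR) and by 1.08 in primed cells (adjusted p = 2.45e-16 by edgeR), 2.20-fold and 2.11-fold lower. MEFs had 0 counts of *Otx2*, with an exact 95% Poisson interval of 0 to 0.157 CPM.

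*Pou3f1*, a POU factor of the epiblast and of the early neural plate, was raised in primed cells, and more so at P15. Its levels were 31.7 and 31.8 CPM in naïve P5 cells, 69.3 and 66.4 CPM in primed P5 cells, 30.6 and 26.7 CPM in naïve P15 cells, and 111 and 104 CPM in primed P15 cells. The naïve libraries of both passages lay close together, whereas the primed libraries of P15 stood above those of P5. The log2 fold change was 1.13 ± 0.061 (SE, adjusted p = 3.64e-16) at P5 and 1.90 ± 0.080 (adjusted p = 8.11e-22) at P15 by edgeR. The difference of 0.79 ± 0.10 (SE) between the passages passed its own test (adjusted p = 2.19e-07 by edgeR) and kept its call under all 14 alternatives tried. MEFs held 0.425 CPM.

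*Zic2*, a zinc finger factor of the primed epiblast, followed the same order. Naïve P5 cells had 38.3 and 38.0 CPM and naïve P15 cells 40.1 and 37.5 CPM, whereas primed cells had 91.7 and 92.2 CPM at P5 and 121 and 123.5 CPM at P15. Primed and naïve libraries did not overlap. The log2 fold change was 1.30 ± 0.054 (SE, adjusted p = 7.43e-19) at P5 and 1.64 ± 0.073 (adjusted p = 3.89e-21) at P15 by edgeR. The effect was larger at P15 by 0.36 ± 0.088 (SE, adjusted p = 0.00167 by edgeR). This call was lost with library size alone as the scaling (0.25, edgeR adjusted p = 0.0295) and without either primed P5 replicate or without naïve P15 replicate 2 (edgeR adjusted p between 0.0134 and 0.016). MEFs held 5.02 CPM.

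*Zic5*, the divergent neighbour of *Zic2* and a member of the same family, differed little between the states. Its levels were 45.5 and 47.1 CPM in naïve P5 cells, 55.6 and 57.0 CPM in primed P5 cells, 54.4 and 53.6 CPM in naïve P15 cells, and 55.2 and 60.8 CPM in primed P15 cells. Only the naïve P5 libraries stood below the others. Primed P5 cells were 1.24-fold higher than naïve P5 cells (log2 0.31 ± 0.059, SE, adjusted p = 2.62e-05 by edgeR). At P15 the log2 difference was 0.093, with a 95% interval of -0.058 to 0.24 (adjusted p = 0.29 by edgeR), and the difference between the passages was not past the threshold either (-0.20, adjusted p = 0.0997 by edgeR). MEFs held 0.893 CPM.

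*Foxd3*, a forkhead factor required for the epiblast and later a neural crest gene, differed between the passages in both states. Naïve P5 cells had 11.1 and 11.8 CPM, primed P5 cells 13.8 and 12.3 CPM, naïve P15 cells 23.0 and 23.3 CPM, and primed P15 cells 42.5 and 36.1 CPM. All P15 libraries were above all P5 libraries. The state difference at P5 was 0.22 on the log2 scale with a 95% interval of -0.012 to 0.45 (adjusted p = 0.0974 by edgeR), and at P15 it was 0.75 ± 0.099 (SE, adjusted p = 2.76e-08 by edgeR). With library size alone the P5 difference passed (0.42, adjusted p = 0.00286 by edgeR), but that scaling also moved the P5 median of all genes from 0.00776 to 0.211. From P5 to P15 the level rose 2.01-fold in naïve cells (log2 1.01 ± 0.11, SE, adjusted p = 2.99e-08 by edgeR) and 2.94-fold in primed cells (log2 1.56 ± 0.10, SE, adjusted p = 4.04e-14 by edgeR). The larger state difference at P15 (0.55 ± 0.15, SE, adjusted p = 0.00546 by edgeR) lost its call under 8 of 14 alternatives, 6 of which left out 1 library (any but naïve P5 replicate 1 and primed P15 replicate 2), with values from 0.43 to 0.61 and adjusted p from 0.0112 to 0.0590 over the 8. MEFs held 3.70 CPM, which at the median feeder share would give between 2.22% and 5.75% of the level of a library. The lowest marker ratio would give 0.0248 to 0.2445 CPM.

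*Sall2*, a zinc finger gene also expressed outside pluripotent cells, was higher in primed cells, with a narrower difference at P15. Its levels were 13.9 and 14.2 CPM in naïve P5 cells, 70.6 and 69.1 CPM in primed P5 cells, 14.9 and 14.3 CPM in naïve P15 cells, and 53.2 and 48.7 CPM in primed P15 cells. The naïve libraries were alike at both passages, and the primed P15 libraries lay between the naïve and the primed P5 libraries. The log2 fold change was 2.35 ± 0.071 (SE, adjusted p = 3.13e-22) at P5 and 1.80 ± 0.10 (adjusted p = 4.06e-18) at P15 by edgeR. The effect at P15 was smaller by 0.53 on the log2 scale (-0.53 ± 0.12, SE, adjusted p = 0.000991 by edgeR). MEFs held 34.5 CPM, with an exact 95% Poisson interval of 32.2 to 36.9 CPM, more than the naïve cells. At the median feeder share this would give 42.7% to 48.5% of the naïve level, 7.38% to 7.42% of the primed P5 level and 16.6% to 18.0% of the primed P15 level. With that share of the MEF counts taken off, the log2 fold change was 3.02 at P5 and 2.55 at P15, and the difference between the passages no longer passed (-0.44, adjusted p = 0.0425 by edgeR). If feeder RNA had the composition of the MEF library, its share could not exceed the lowest marker ratio of a library. That ratio was 4.12% to 6.61% in naïve, 0.671% to 0.693% in primed P5 and 2.36% to 2.44% in primed P15 libraries. By this measure the median share is too high in every library. *Foxd1*, at 24.2 CPM in MEFs, had 1.59 to 2.62 CPM in naïve libraries, less than that share would give. At the lowest marker ratio, MEF RNA would give 1.42 to 2.28 CPM of *Sall2* in naïve libraries. In primed libraries it would give 0.231 to 0.239 CPM at P5 and 0.813 to 0.842 CPM at P15. The adjusted values hold for the median share only.

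*Sall3* (ENSMUSG00000024565, minus strand of chr18:80966376-80986771), of the same family, went the other way. Naïve cells had 11.4 and 10.8 CPM at P5 and 14.7 and 15.2 CPM at P15, and primed cells had 3.63 and 4.10 CPM at P5 and 7.23 and 6.82 CPM at P15. Every primed library was below every naïve one. The level was 2.82-fold lower in primed cells at P5 (log2 -1.50 ± 0.16, SE, adjusted p = 1.13e-09 by edgeR) and 2.14-fold lower at P15 (log2 -1.10 ± 0.15, SE, adjusted p = 6.01e-08 by edgeR). The difference between the passages was 0.41 with a 95% interval of -0.0037 to 0.83 (adjusted p = 0.136 by edgeR). In MEFs there were 8 counts of *Sall3*, or 0.340 CPM.

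**Figure D2:**
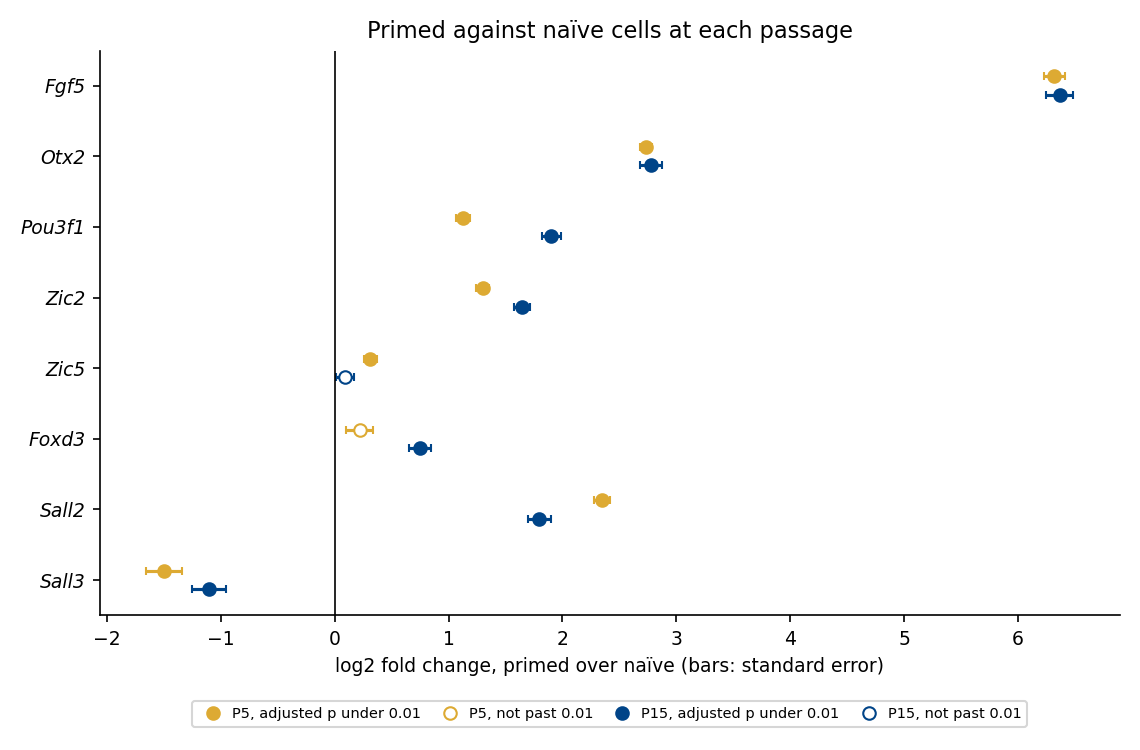
Log2 fold change of primed over naïve cells (x axis) for the 8 genes at P5 and P15, with the standard error as bars; filled points passed an adjusted p under 0.01 by edgeR and open points did not. *Fgf5* stands above 6 at both passages, *Otx2* near 2.7, *Sall3* below 0, and only *Foxd3* at P5 and *Zic5* at P15 are open. The bars of *Fgf5* are too short for its small naïve counts.

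Of the 8 genes, 4 had a state effect that differed between the passages, 3 with a higher value at P15 (*Pou3f1*, *Zic2*, *Foxd3*) and 1 with a lower value (*Sall2*). Among all 16926 genes tested, 24.1% were called in this comparison, 13.3% higher and 10.8% lower. Library size alone shifted the median of all genes by -0.114 in it, and the share of higher values among the calls went from 54.99% to 35.16%. *Pou3f1* was then the only one of the 3 still called higher (0.68, against the shifted median), and *Sall2* was still called lower.

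Passage was compared within each state. In naïve cells 1 gene rose (*Foxd3*) and 1 fell (*Otx2*) from P5 to P15, where 11.9% of all genes were called, 5.08% higher and 6.79% lower. The 2009 genes behind this share became 1138 to 1278 without either naïve P5 replicate or without naïve P15 replicate 1, 1140 with the feeder share taken off and 1333 by DESeq2. In primed cells 5 rose (*Fgf5*, *Pou3f1*, *Zic2*, *Foxd3*, *Sall3*) and 2 fell (*Otx2*, *Sall2*), where 43.8% of all genes were called, 22.4% higher and 21.4% lower. The primed changes other than those of *Otx2* and *Foxd3* were below 2-fold. *Pou3f1* rose 1.55-fold (log2 0.63 ± 0.062, SE), *Zic2* 1.30-fold (0.38 ± 0.055) and *Sall3* 1.78-fold (0.83 ± 0.17), with adjusted p of 4.62e-10, 8.87e-07 and 9.83e-05 by edgeR. *Sall2* was 1.40-fold lower (log2 -0.49 ± 0.069, SE, adjusted p = 4.58e-07 by edgeR). The rise of *Fgf5* was the smallest of those called (1.16-fold, log2 0.21 ± 0.054, SE, adjusted p = 0.00123 by edgeR), and it did not pass with library size alone, by DESeq2 or without either primed P5 replicate (0.082 to 0.21, adjusted p from 0.0109 to 0.2). Library size alone shifted the median of all genes by -0.147 in the primed comparison and took the share of higher values among the calls from 51.17% to 33.93%. Fibroblast markers moved in the same comparison, with 26 of 30 called higher and 0 lower in primed cells and 19 higher and 2 lower in naïve cells. Their part in the changes of the 8 genes was not tested, apart from the fit with the feeder share taken off, in which each of these 7 calls in primed cells held.

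**Figure D3:**
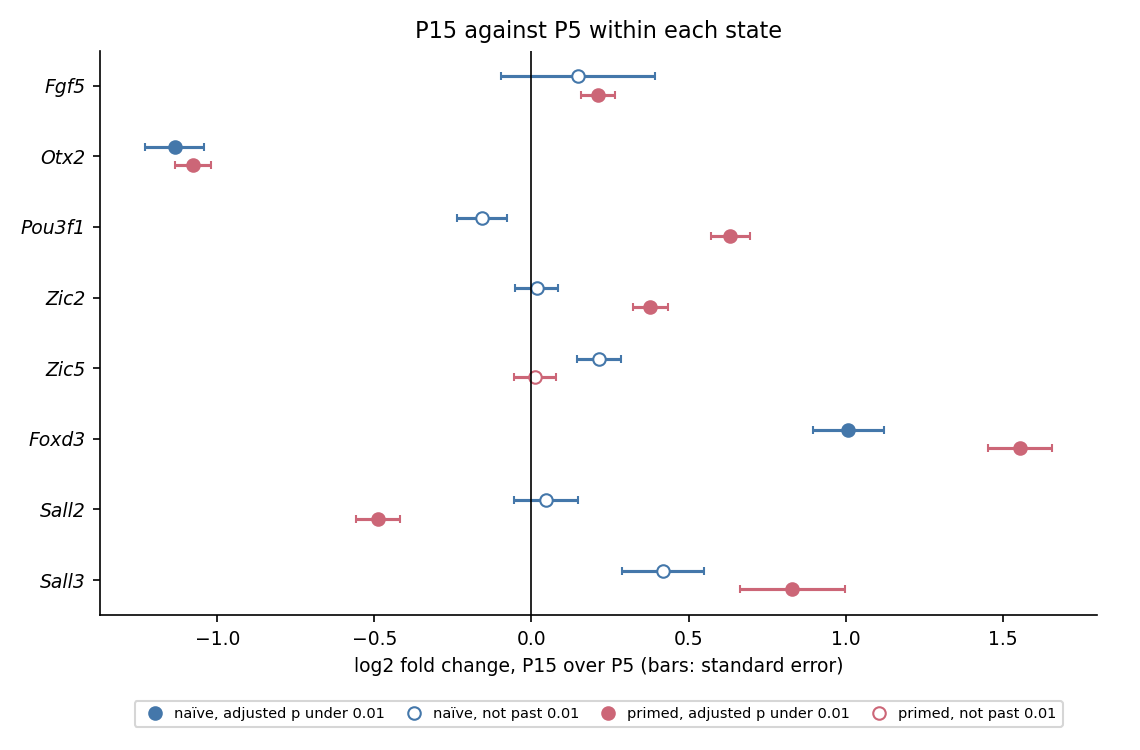
Log2 fold change of P15 over P5 (x axis) for the 8 genes in naïve and in primed cells, with the standard error as bars; filled points passed an adjusted p under 0.01 by edgeR and open points did not. *Otx2* lies near -1.1 in both states and *Foxd3* at 1.01 and 1.56, whereas the other filled points belong to primed cells and lie between -0.49 and 0.83.

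Levels were compared between genes per kb of exon, since the genes differ in length from 2324 bases (*Foxd3*) to 7481 bases (*Sall3*). In naïve P5 cells *Zic2* led with 13.3 CPM per kb, followed by *Zic5* (9.47), *Pou3f1* (8.25), *Otx2* (5.94), *Foxd3* (4.93), *Sall2* (2.58), *Sall3* (1.49) and *Fgf5* (0.615). In primed P5 cells the last of these came first, with *Fgf5* at 48.2 CPM per kb, then *Otx2* (38.6), *Zic2* (31.9), *Pou3f1* (17.6), *Sall2* (12.9), *Zic5* (11.5), *Foxd3* (5.61) and *Sall3* (0.517). In naïve P15 cells *Foxd3* (9.97 CPM per kb) stood after *Zic2* and *Zic5* and before *Pou3f1*, and *Otx2* and *Sall2* (2.70 and 2.68) did not differ beyond their spread. In primed P15 cells *Fgf5* (57.1 CPM per kb) was followed by *Zic2* (42.4) and *Pou3f1* (28.0), and *Otx2* (18.7) came after these, whereas at P5 it had stood above both. For all other neighbours in these orders, the values of the 2 libraries of a group did not overlap.

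**Figure D4:**
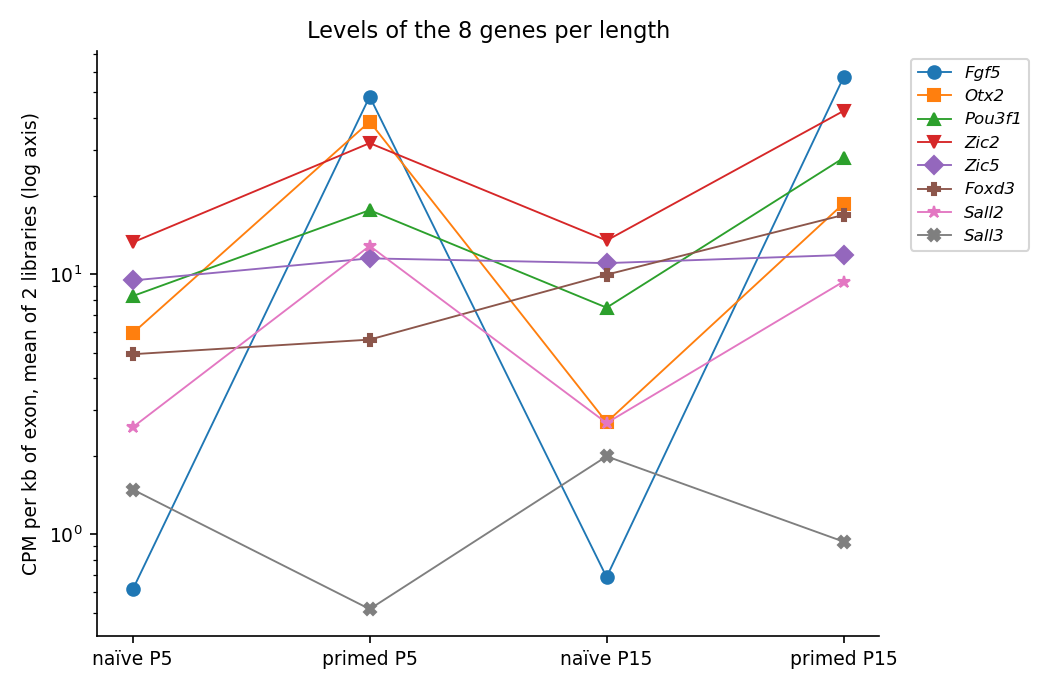
Mean level of the 8 genes in CPM per kb of exon (y axis, log scale) in the 4 groups of naïve and primed cells, 2 libraries each; a line joins the means of a gene. *Fgf5* is the lowest of the genes in both naïve groups and the highest in both primed groups, and *Sall3* is the lowest in both primed groups.

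Other genes of the epiblast, from a list of 16 that leaves the 8 out, did not share one direction. At P5, primed cells had 7 higher and 8 lower, with a median log2 fold change of -0.24, and at P15 8 were higher and 6 lower, with a median of 0.33. Of all genes tested, 62.3% were called at P5 and 56.6% at P15. Counts of calls in this list and those below are to be read against these shares. *Fgf8*, an FGF ligand of the streak stage epiblast, went from 1.74 and 1.83 CPM in naïve to 26.8 and 25.3 CPM in primed P5 cells, and from 1.10 and 1.34 to 105 and 89.8 CPM at P15. Its log2 fold change was 3.90 ± 0.15 (SE) at P5 and 6.29 ± 0.15 at P15, larger at P15 by 2.41 (adjusted p = 1.51e-07 by edgeR). As for *Fgf5*, these SEs are too small, with naïve counts of *Fgf8* between 15 and 37 per library. *Pim2*, a kinase gene, rose by 1.88 at P5 and 3.14 at P15 on the log2 scale, and *Cdh2*, which encodes N-cadherin, by 1.49 and 1.71. *Cdh2* had 134 CPM in MEFs, above all naïve and primed libraries. *Utf1*, a chromatin factor of pluripotent cells, fell by 1.57 and 1.80 on the log2 scale. *Grhl2*, chosen for mention after its values were seen, encodes an epithelial factor and changed by -0.33 on the log2 scale at P5 and by -3.49 at P15.

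**Figure D5:**
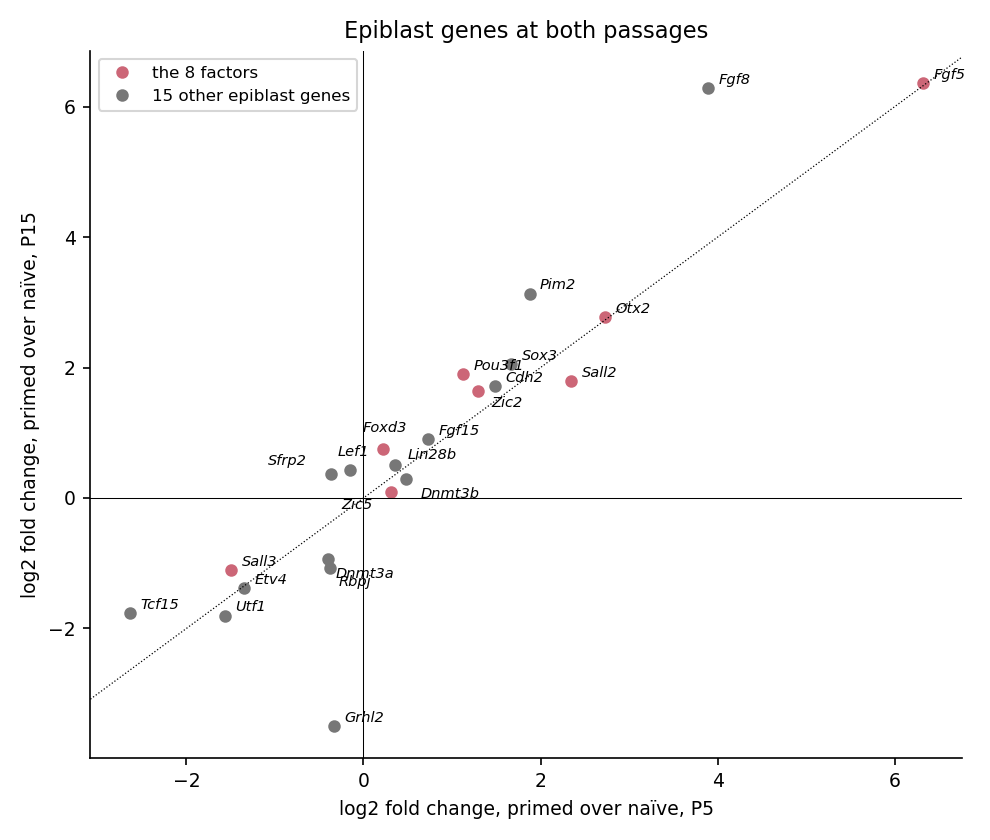
Log2 fold change of primed over naïve cells at P5 (x axis) and at P15 (y axis) for the 8 factors and 15 of the 16 other epiblast genes; each point is a gene, and the dotted line marks equal change at both passages. *Fgf5*, *Otx2* and *Etv4* lie near the line, *Fgf8* and *Pim2* above it, and *Grhl2* far below it at -0.33 and -3.49.

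Of 15 paralogs of the 8 genes, 14 had enough counts at P5, of which 7 were higher and 4 lower in primed cells, and 11 at P15, of which 5 were higher and 3 lower. With 62.3% and 56.6% of all genes called, such counts say little about these families. How reads shared between related genes were counted is not stated. *Fgf4*, the FGF ligand of naïve cells, was the reverse of *Fgf5*, with 166 and 158 CPM in naïve and 39.9 and 43.8 CPM in primed P5 cells, and 173 and 149 against 3.33 and 3.98 CPM at P15. Its log2 fold change was -1.93 ± 0.052 (SE) at P5 and -5.47 ± 0.11 at P15, lower at P15 by a log2 difference of -3.53 (adjusted p = 2.45e-19 by edgeR). The SE at P15 is too small for the primed counts of 58 and 70. *Foxd4* had 0 counts in both naïve P5 libraries and 155 and 171 counts in primed P5 cells, at least 57.8-fold higher against a floor of 3 counts per library. At P15 it had 0 and 1 counts in naïve and 5 in each primed library, too few for the test. *Foxd1* was higher in primed cells at both passages (log2 2.40 at P5, adjusted p = 1.76e-11, and adjusted p = 0.000613 at P15 by edgeR), with 24.2 CPM in MEFs against 1.59 to 8.90 CPM in naïve and primed libraries.

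Among the 4 FGF receptor genes, through which ligands such as Fgf5 act, 3 were higher in primed cells and 1 was lower at P5, and 2 were higher and 1 lower at P15. Here too, 62.3% and 56.6% of all genes were called. *Fgfr1* rose by 0.56 and 0.75 on the log2 scale, with 401 CPM in MEFs against 147 to 282 CPM in the naïve and primed libraries. *Fgfr2* had 20.9 and 20.2 CPM in naïve and 44.4 and 40.9 CPM in primed P5 cells, and 16.5 and 15.9 against 15.7 and 13.9 CPM at P15. Its P5 difference was 1.09 ± 0.077 (log2, SE), and it was smaller at P15 by a log2 difference of -1.21 (adjusted p = 3.04e-08 by edgeR). *Fgfr3* likewise had a larger state difference at P5 (log2 2.18) than at P15 (0.81), with a test of the difference at -1.35 (adjusted p = 0.000103 by edgeR). *Fgfr4* was lower in primed cells at both passages, from levels of at most 2.42 CPM.

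Markers of neighbouring tissues were compared as well. Of 8 primitive streak and endoderm markers, all 8 were higher in primed cells at both passages. *T*, the streak gene Brachyury, had 0.810 to 1.34 CPM in the 4 naïve libraries and 96.6 to 117 CPM in the 4 primed ones, and *Foxa2*, an endoderm and node gene, 0.147 to 0.646 and 47.0 to 89.1 CPM. *Eomes* and *Gsc*, further streak genes, reached 57.7 and 32.7 CPM in primed cells. Of 10 neural markers 8 could be tested, and they showed no common direction, with 3 higher and 3 lower at P5 and 2 higher and 3 lower at P15. *Nes* was higher in primed cells (91.2 to 122 CPM in naïve and 201 to 268 CPM in primed libraries), and *Tubb3*, *Neurod1* and *Pax6* were lower. MEFs held 148 CPM of *Nes* and 60.5 CPM of *Tubb3*, but only 0.0851 CPM of *Neurod1* and 0.638 CPM of *Pax6*. Fibroblast markers were called higher in 6 and lower in 17 of 30 at P5, and higher in 14 and lower in 10 at P15. In these bulk samples, a larger number of cells expressing a gene and more of its RNA per cell cannot be told apart.

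Transcripts next to the genes were examined for shared reads, because the kit is not stated to keep strand. *2610035F20Rik*, a noncoding transcript that starts 236 bases from *Zic2* on the opposite strand, had 109 and 80 counts in naïve and 184 and 155 in primed P5 cells, and 69 and 57 against 162 and 205 counts at P15. Like *Zic2* it was higher in primed cells, by 0.95 ± 0.17 (SE, adjusted p = 9.94e-06) at P5 and 1.26 ± 0.19 (adjusted p = 5.51e-07) at P15 on the log2 scale by edgeR. *Gm12688*, which starts 1316 bases from *Foxd3* on the opposite strand, had 13 to 32 counts in every naïve and primed library and no call between the states (log2 0.41, adjusted p = 0.369 at P5 and log2 0.24, adjusted p = 0.597 at P15 by edgeR). *Otx2os1*, which overlaps *Otx2* on the opposite strand, had at most 24 counts in a library, against 141 to 3268 for *Otx2*. *Gm2164*, which overlaps *Pou3f1* on the opposite strand, had at most 3 counts, and *Gm49154*, which overlaps *Otx2* on the same strand, at most 6. *2610035F20Rik* and *Gm12688* do not overlap *Zic2* or *Foxd3*. If strand was not kept, reads from overlapping genes on opposite strands cannot be told apart.

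The genes with the most similar profiles were looked up among 9989 genes with a mean of at least 10 CPM over the 8 naïve and primed libraries. Likeness was the root mean square difference of centred log2(CPM + 1) values, given without a test. *Fgf5* was nearest to *T* (0.14) and *Lhx1* (0.21), a homeobox gene of the streak and node, and *Otx2* to *Ptges* (0.11) and *H2-Q6* (0.20). For *Pou3f1* the nearest were *Agpat3* (0.070) and *Epha1* (0.075), for *Zic2* *Sgk3* (0.072) and *Il1r1* (0.077), and for *Zic5* *Cdk17* (0.035) and *Pde4dip* (0.047). *Foxd3* was nearest to *Mfap4* (0.16) and *Tmem119* (0.17), of which MEFs held 694 and 213 CPM, in contrast to 3.70 CPM of *Foxd3*. The nearest to *Sall2* were *Zfp608* (0.077) and *Lrig3* (0.11), with 39.3 and 105 CPM in MEFs, and to *Sall3* *Rrp9* (0.093) and *Col8a1* (0.094), the latter with 684 CPM in MEFs. With a pseudocount of 0.1, 11 of these 16 genes were named again.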

How the data were processed

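Raw counts per gene were deposited by the authors for 9 libraries, 4 groups of 2 naïve or primed libraries and 1 MEF library. Per the labels and the study's methods, poly(A) libraries were made with the NEBNext Ultra RNA kit and sequenced on an Illumina HiSeq. Reads were trimmed with Cutadapt, aligned to mm10 with HISAT2 (-k 20) and counted with featureCounts. The annotation release, the strand setting and the treatment of multi-mapped reads are not given in the sources used here, so that members of gene families and overlapping genes are uncertain. Groups came from the sample titles. Columns named early and late were assigned to P5 and P15 from the study design. Of 54232 gene IDs, 54079 had a name in GENCODE M21. None of the 92 spike-in entries had a count, and they were not used.

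Counts were tested with edgeR 4.0.16 in R 4.3.3 by the quasi-likelihood test, two-sided, after TMM scaling, on genes with at least 10 counts in at least 2 libraries. The P5 and P15 comparisons used 4 libraries each, and the passage contrasts and the difference between passages used all 8. P-values were adjusted by Benjamini and Hochberg over all genes tested, with calls made below 0.01 and counted also with a change of at least 2-fold. The SE is the log2 fold change divided by the square root of the F statistic, and a 95% interval extends 1.96 SE to each side. For large folds over small counts (*Fgf5* and *Fgf8* between the states, and *Fgf4* at P15) this SE was too small. The MEF library entered no test. The feeder share is the median ratio of 30 fibroblast markers to their MEF level. Replicates differed by more than sampling noise (chi-square per gene between 2.1 and 3.28). Beyond that noise their spread was small. The biological coefficient of variation was 3.26% at P5, 4.79% at P15 and 4.05% in the fit of 8 libraries. The p-values rest on this small spread. A floor of 3 counts stands at 0.148 to 0.221 CPM in the naïve and primed libraries. Intervals and floors cover counting error only. The code was tested on simulated data.

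The genes and the marker lists were chosen with earlier results of these data known. Named were the 8 genes, the 4 of each list with the smallest adjusted p between the states, the 2 genes nearest to each in profile, and transcripts over or next to them. *Grhl2* was added after its values were seen. A gene that this rule names is not reported here. Alternatives were library size alone, the size factors or the Wald test of DESeq2 1.42.0, no low-count filter, a replicate block, the feeder share taken off, other sets of libraries in the fit, and each replicate left out. A block with crossed numbers at P15 was added after seeing the data.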

Additional observations from a re-analysis of the deposited data

Results flagged for a closer look

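In 4 of the 8 genes the difference between primed and naïve cells was not the same at P5 and P15 by a test of that difference (edgeR, 8 libraries), and no explanation was tested. Of all 16926 genes, 24.1% were called in the same test, so that the count alone does not set these genes apart. *Pou3f1* rose more at P15 by 0.79 on the log2 scale (adjusted p = 2.19e-07 by edgeR), with values from 0.68 to 0.94 over 14 alternatives. *Zic2* rose more by 0.36, a call that held under 10 of 14 alternatives. *Foxd3* rose more by 0.55, a call that held under 6 of 14 alternatives. *Sall2* rose less, by -0.53 on the log2 scale, a call that held under 13 of 14 alternatives but not with the feeder share subtracted.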

How the results depend on the processing

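Over 40 results, each of the 8 genes in 5 comparisons, 536 values under alternatives were compared with those reported. Of these, 508 kept direction and side of the threshold, 17 lost a call, 1 gained one and 10 changed sign, and 30 results had no change under any alternative. The losses were those of *Foxd3*, *Zic2* and *Sall2* between passages and of *Fgf5* in primed cells, and the cause was not tested. No call changed sign. Genes called higher between passages numbered 1 with library size alone and 1 to 3 with a library left out (1 without either primed P5 replicate or naïve P15 replicate 2), against 3, and those called lower 0 with the feeder share taken off, against 1 (edgeR). Of all genes, 2009 were called between naïve passages, 1333 by DESeq2, 1140 with the feeder share taken off and 1138 to 2083 with a library left out, lowest without either naïve P5 replicate. With library size alone the P5 median over all genes was 0.211 and that of P15 0.101, and the share of higher values among the calls at P5 went from 50.1% to 65.75%.

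Values near 0 that changed sign with library size alone were the passage differences of *Fgf5* (-0.049) and *Otx2* (-0.057), *Zic2* between naïve passages (-0.000403) and *Zic5* between primed passages (-0.12). *Sall2* between naïve passages was -0.020 with the feeder share taken off. With a library left out, the ranges were -0.015 to 0.15 (*Fgf5*) and -0.059 to 0.20 (*Otx2*) for the passage difference, -0.030 to 0.065 for *Zic2* and -0.37 to 0.12 for *2610035F20Rik* between naïve passages, and -0.051 to 0.083 for *Zic5* between primed passages. *Gm12688* ranged from -0.074 to 1.07 at P5, -0.17 to 0.68 at P15, -0.82 to 0.31 for the passage difference and -0.031 to 1.11 between naïve passages. A group left with 1 library was assumed to vary like the others.

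Deviations of same-numbered libraries correlated at -0.0727 between the states at P5 and -0.106 at P15, at 0.0856 between naïve and 0.0911 between primed passages, and at -0.042 and -0.12 in the other pairs of groups. None was above 0.1, but those at P15 (-0.106) and between primed P5 and naïve P15 (-0.12) exceeded 0.1 in size. Negative values can arise when numbers are crossed between groups. The numbers were taken only to name the libraries, and pairing by crossed numbers was not tested beyond the block at P15. The replicate block called 10225 genes at P5, 7836 at P15 (9477 with crossed numbers, against 8899 without a block), 3738 between passages, 1687 in naïve and 7063 in primed cells, and changed no call of the 8 genes.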
